A study of Pinus pinaster with 14 samples.

Results

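In seedlings of maritime pine (Pinus pinaster), 211 of the 23493 transcripts measured stood far higher in cotyledon vascular tissue than in any other tissue sampled. They were chosen by their normalised values alone: the cotyledon vascular value + 5 had to be at least 8 times the highest of the other 13 libraries + 5. The rule took in 0.898% of the table and used all 14 columns, so the levels below describe the choice and carry no test. The transcripts bear assembly identifiers that the file does not pair with gene names, so no function or sequence can be given for any of them, and no vascular marker could be looked up. The name of the tissue therefore rests on its label.

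Each library was 1 laser-microdissected tissue of 1-month-old seedlings of the Oria provenance, grown in soil in a culture chamber, and the labels name no treatment or genetic change in any of them. In this method cells seen in a thin cryosection are isolated with a laser, and the small amount of RNA they yield was amplified as cDNA before pyrosequencing. The tissues were cotyledon vascular tissue, the vascular tissue of young needles, hypocotyl, root and developing root, the mesophyll or cortex of the same 5 organs, the apical and root meristems, hypocotyl pith and emerging needles. No tissue had a second library, and the labels do not say how many seedlings gave a library or whether libraries share seedlings.

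The cotyledons of a pine seedling are its first leaves. They pass on reserves taken up from the seed and then photosynthesise. Their veins hold xylem, which brings water and minerals, and phloem, which carries sugars and amino compounds away, wrapped in transfusion tissue that exchanges solutes with the mesophyll. A vascular library of a leaf is therefore a mixture of conducting, parenchyma and bundle cells. In such bulk samples, fewer cells of a type and less RNA per cell cannot be told apart.

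Reads recovered from the deposited values numbered 844745 for cotyledon vascular tissue and 519134 to 1536389 over all libraries. A single read was worth 0.877 in cotyledon vascular tissue, and from 0.652 in the root meristem to 3.76 in hypocotyl cortex. A member with no reads elsewhere thus needed 40 cotyledon vascular reads, a value of 35.1. Intervals below are exact Poisson or binomial ones at 95% unless named otherwise, and they cover counting error only, since amplified cDNA reads are not independent molecules.

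The preferential transcripts ranged from 35.1 to 644 in cotyledon vascular tissue, with a median of 108, against a median of 23.7 for the 9626 transcripts with reads there. Of the 211, 117 reached 100 while 29 reached 200. Together they held 30767 reads, 3.64% of that library (95% Wilson interval 3.60 to 3.68%). The most abundant transcripts of the cotyledon veins were not among them. A total of 121 transcripts stood above 644 and held 28.6% of the library's reads, and only 29 of these were higher in cotyledon vascular tissue than in every other library. Their highest other value lay most often in hypocotyl vascular tissue (27), root vascular tissue (23) or young needle mesophyll (19). Of the 3987 transcripts at 35 or more in cotyledon vascular tissue, the preferential ones made up 5.29%.

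**Figure D1:**
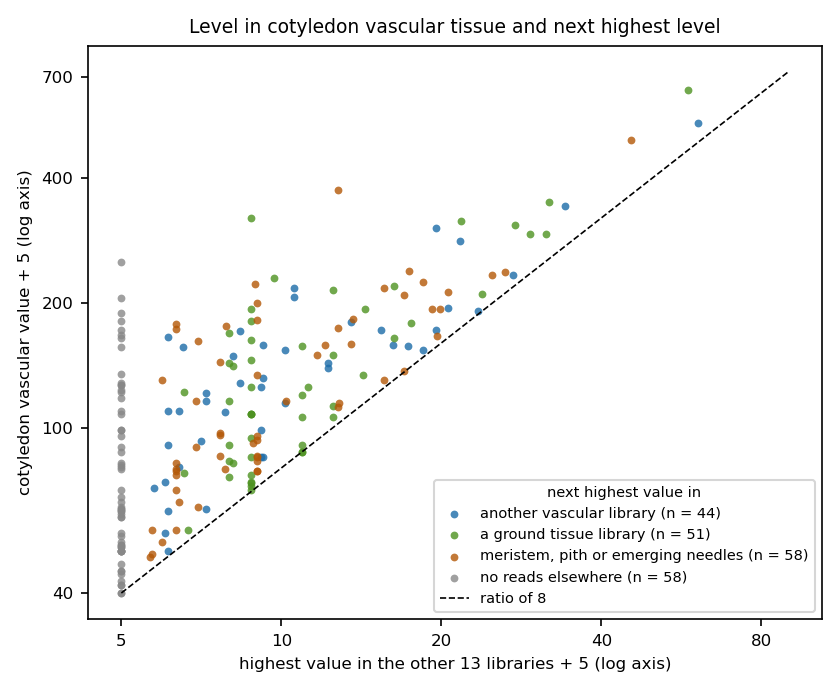
Cotyledon vascular value + 5 (vertical, log axis) against the highest value in the other 13 libraries + 5 (horizontal, log axis) for the 211 preferential transcripts, coloured by the kind of library that holds that next highest value. All points lie on or above the dashed ratio of 8 by choice, the 58 without reads elsewhere stand at the left edge, and the 3 kinds of library are intermixed.

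Outside cotyledon vascular tissue the 211 transcripts were nearly empty. All 13 other libraries together gave them 2601 reads. A total of 58 (27.5%) had no read in any other library, 33 had reads in 1 other library, 87 in 2 to 5 and 33 in 6 or more. The next highest value had a median of 2.96 and reached 10 for 35 transcripts and 20 for 10. The median member had reads in 2 of the 13 other libraries, against 8 for all transcripts of the table. The number with no reads elsewhere went with the level, as the rule asks for lower values of weaker transcripts: it was 20 of the 24 members below 50, 21 of 70 between 50 and 100, 16 of 88 between 100 and 200, and 1 of 29 from 200 up.

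The strongest transcript without a read elsewhere was isotig54925. It had 280 reads in cotyledon vascular tissue, a value of 245 (interval 218 to 276), and none in the other 13 libraries. It was at least 21.8-fold higher than the value of 3 reads in hypocotyl cortex, where a read is worth most, and at least 126-fold higher than that limit in the root meristem, where it is worth least. The second, isotig67529, had 228 reads and a value of 199.9 (175 to 228), at least 17.7-fold and 102-fold above the same limits.

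The other vascular libraries hardly held these transcripts. Reads were found for 53 of the 211 (25.1%) in hypocotyl vascular tissue, 47 (22.3%) in developing root vascular tissue, 33 (15.6%) in root vascular tissue and 28 (13.3%) in young needle vascular tissue, the vein tissue of the later leaves. Over the whole table the shares were 66.8%, 60.9%, 54.7% and 50.7% in the same order, and the rule itself caps the members in these libraries. The values of all 211 summed to 300.3 in hypocotyl, 254 in developing root, 153 in young needle and 144 in root vascular tissue, against 26969 in cotyledon vascular tissue. A single transcript, isotig27100, made up 36.7% of the young needle vascular sum. For the 183 transcripts without young needle vascular reads, cotyledon vascular tissue was at least 15.2-fold to at least 280.2-fold higher, taking 3 reads in young needles as the limit. At least 1 of the 4 other vascular libraries had reads for 97 transcripts (46.0%), against 83.9% of the whole table, and 13 had reads in vascular libraries and nowhere else. The figures were alike for the 5 ground tissue libraries, with reads for 98 (46.4%), against 89.8% of the whole table, and 8 with reads only there.

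Cotyledon mesophyll held still fewer. There 20 of the 211 (9.48%) had reads, 149 reads in all, although that library was about as deep (883851 reads) and had reads for 73.7% of the transcripts at 35 or more in cotyledon vascular tissue. For the 191 without reads there, the vascular library was at least 13.9-fold to at least 146-fold higher. The 20 were mostly strong ones, for which the rule itself allows higher values elsewhere. Of the 29 members at 200 or more, 11 had mesophyll reads, against none of the 24 below 50.

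**Figure D2:**
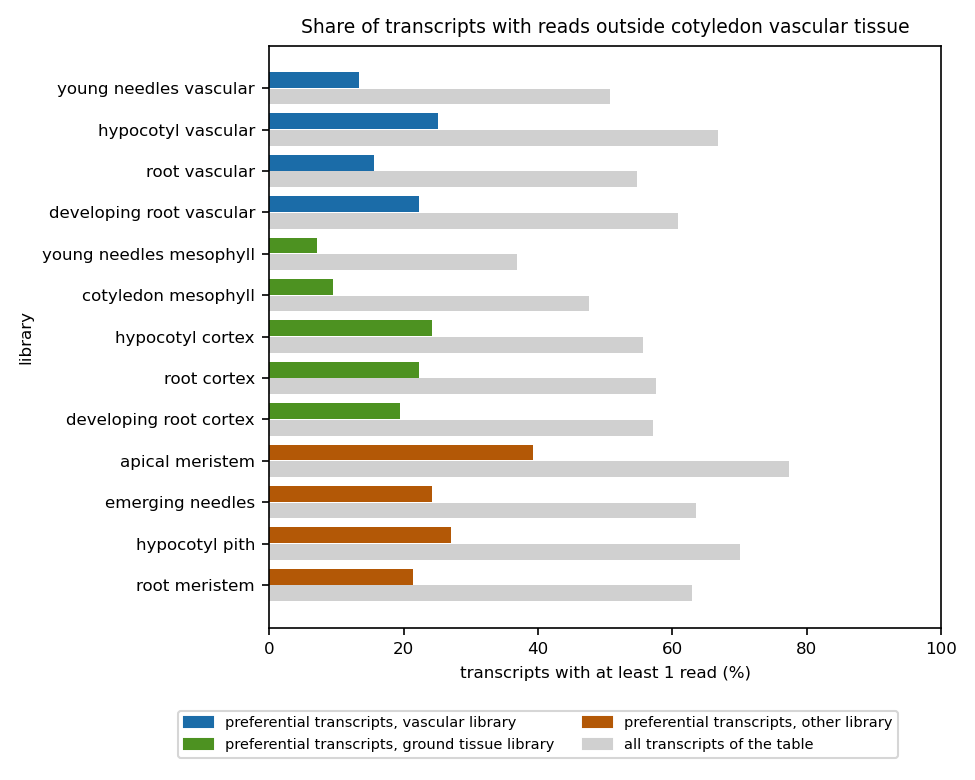
Share of transcripts with at least 1 read (%, horizontal) in each of the 13 other libraries, for the 211 preferential transcripts (coloured by kind of library) and for all 23493 transcripts (grey). Coloured bars are shortest for young needle mesophyll (7.11%) and longest for the apical meristem (39.3%), each below the grey bar in every library, which the rule itself brings about.

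The young needle and cotyledon libraries stood at the low end of the share of the 211 with reads. Emerging needles did not, with reads for 51 (24.2%), against 63.5% of the whole table. Young needle mesophyll had reads for 15 transcripts (7.11%), the fewest of all, where it had reads for 36.8% of the whole table. The share for the 211 divided by the share for the whole table was 0.193 in young needle mesophyll, 0.199 in cotyledon mesophyll and 0.262 in young needle vascular tissue, the lowest 3, and it ran from 0.286 in root vascular tissue to 0.508 in the apical meristem in the other 10. At least 1 of the 3 other young needle and cotyledon libraries had reads for 48 of the 211 (22.7%). Either of the root libraries had reads for 69 (32.7%), while both sets of libraries had reads for 70.7% of the whole table. By reads the order was not the same. The 211 held 0.00664% of reads in root vascular tissue and 0.00690% in young needle mesophyll, the lowest shares, and 0.0544% in emerging needles, the highest. Apical meristem had reads for 83 of the 211, and it was also the library with reads for most of the whole table (77.4%).

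The next highest values were spread over all kinds of library. Of the 153 transcripts with reads elsewhere, the next highest value was in another vascular library for 44 (28.8%), in mesophyll or cortex for 51 (33.3%), and in a meristem, pith or emerging needles for 58 (37.9%). These kinds make up 4, 5 and 4 of the 13 libraries. By library it was most often the apical meristem (26), hypocotyl cortex (24), hypocotyl vascular tissue (17) and emerging needles (17), and least often young needle mesophyll (1), young needle vascular tissue (5) and cotyledon mesophyll (5). Among the 1657 transcripts that were also highest in cotyledon vascular tissue but by less than the rule, 1614 had reads elsewhere, and the next library was vascular for 34.9% of them, young needle vascular tissue for 209 and cotyledon mesophyll for 160. The next value rested on 1 or 2 reads for 73 of the 153, and 1 read counts for more in hypocotyl cortex than in any other library.

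**Figure D3:**
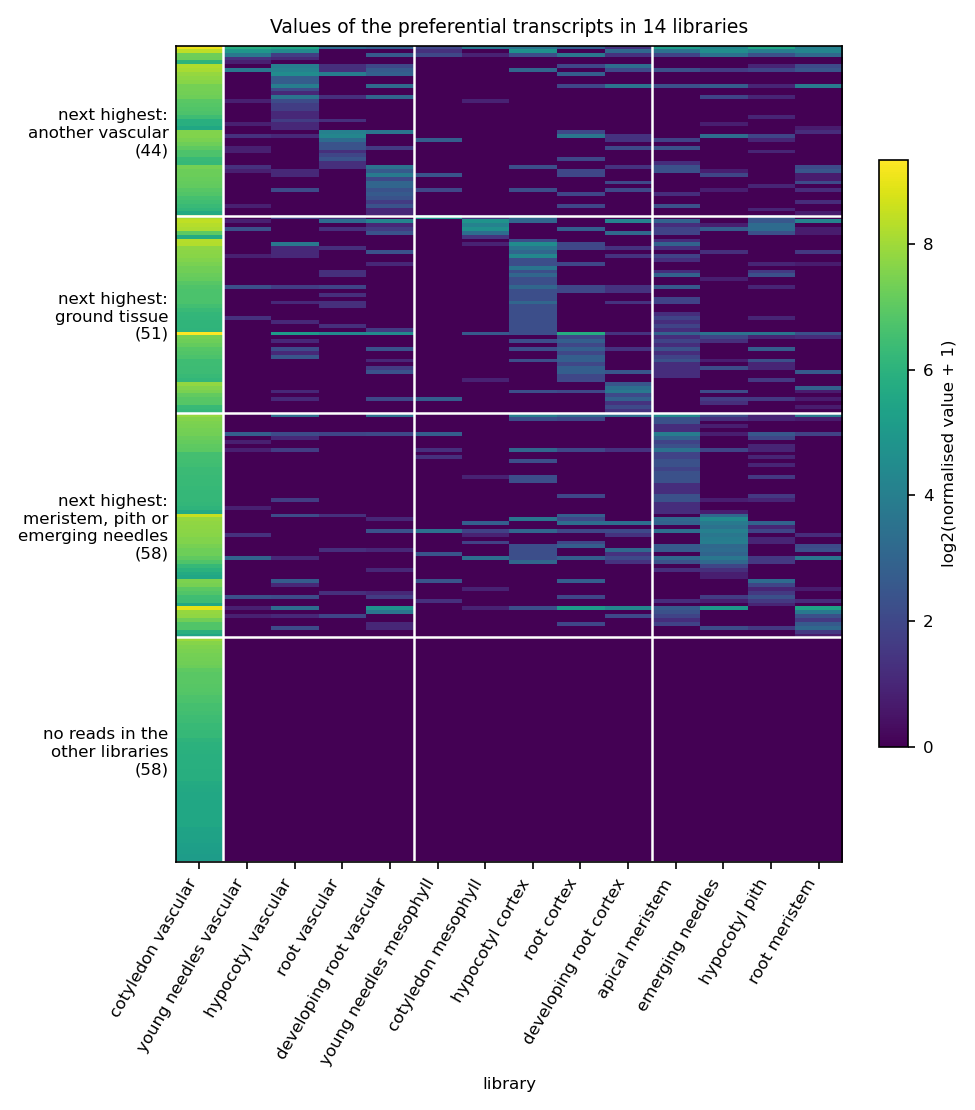
Values of the 211 preferential transcripts (rows) in 14 libraries (columns) as log2(normalised value + 1), with rows grouped by the kind of library that holds the next highest value. The first column is filled throughout by choice, 58 rows are at 0 in all other columns, and the mesophyll columns of young needles and cotyledons are the emptiest.

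Within organs, vascular and ground tissue were set side by side for the 4 organs other than the cotyledon. In young needles 27 of the 211 transcripts were higher in vascular tissue and 11 in mesophyll, in developing root 39 were higher in vascular tissue and 30 in cortex, in hypocotyl 36 in vascular tissue and 47 in cortex, and in root 27 in vascular tissue and 42 in cortex. Over the whole table the vascular library was the higher for 59.3% of unequal transcripts in young needles, 52.6% in developing root, 56.8% in hypocotyl and 46.3% in root, where for the 211 it was 71.1%, 56.5%, 43.4% and 39.1%. Of the 211, 3 (1.42%) were higher in vascular tissue in all 4 organs and 1 (0.474%) was higher in ground tissue in all 4, against 5.37% and 2.23% of the whole table. A read was worth 3.76 in hypocotyl cortex against 1.12 in hypocotyl vascular tissue, and 2.96 in root cortex against 1.42 in root vascular tissue. At equal numbers of reads the cortex value was thus the higher. Counted by reads alone, 51 of the 211 had any in hypocotyl cortex and 53 in hypocotyl vascular tissue. In root it was 47 in cortex and 33 in vascular tissue. These are single libraries and the counts are a description.

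Outside the cotyledon, the 8 vascular and ground tissue libraries of the other 4 organs were fitted with limma across the whole table, first vascular against ground tissue and then root against shoot. Organs stood in for replicates. In the first fit the p-values set the mean difference between tissues within an organ against its variation from organ to organ. limma moderates that variation with information from all transcripts fitted. The second fit set root and developing root against young needle and hypocotyl, without a term for organ. Both libraries of each organ counted there as independent, so its p-values may be too small whether or not seedlings are shared. Shared seedlings could make the p-values of either fit too small. The rule caps the 211 in all 8 of these libraries, and 207 of them never entered the fit because they did not reach 10 in at least 3 libraries. The other 4 cannot speak for the set.

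Between vascular and ground tissue, none of the 4 was called by limma at an adjusted p under 0.05 or had an unadjusted p under 0.05, where limma called 1 of 9724 transcripts (0.0103%). edgeR's quasi-likelihood test on the recovered reads called none of the 4 and 1 of 9724 (0.0103%), and DESeq2 gave the 4 no adjusted p while it called 144 (1.48%). isotig27100 averaged 29.4 ± 25.7 in the 4 vascular libraries and 5.42 ± 4.30 in the 4 ground tissue libraries (SD), a difference of 1.42 ± 0.90 SE on the log2(value + 5) scale (limma adjusted p = 0.566). The SD among the vascular libraries was nearly as large as their mean.

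Between root and shoot organs, limma called none of the 4 and 183 of 9724 transcripts (1.88%), edgeR none of the 4 and 255 (2.62%), and DESeq2 none of the 4 and 826 (8.49%). At an unadjusted p under 0.05 limma had 1 of the 4. This test is of no use for any of the 4, as the side where each is higher was enough for its entry. unigene6869, unigene9868 and isotig27100 entered the fit only through libraries on that side. isotig21758 was at 33.5 in hypocotyl vascular tissue. Its values in root cortex (53.3), developing root vascular tissue (21.7) and root vascular tissue (19.8) were enough for entry without it. Its 4 root and developing root libraries averaged 24.1 ± 21.5 (SD). Its 4 young needle and hypocotyl libraries averaged 9.31 ± 16.2 (SD), a log2 difference of 1.23 ± 0.95 SE (limma adjusted p = 0.559).

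The individual transcripts showed several patterns below their cotyledon vascular peak. isotig21758, the most abundant, stood at 644 in cotyledon vascular tissue (interval 599 to 693), where it ranked only 122nd. It was at 33.5 in hypocotyl, 21.7 in developing root and 19.8 in root vascular tissue, and had no reads in young needle vascular tissue. Among ground tissues it reached 53.3 in root cortex, from 18 reads, and was at 0 to 5.05 in the other 4. Cotyledon vascular tissue was 12.1 times above root cortex, with an interval of 7.60 to 20.5. It was also at 11.5 in hypocotyl pith, 10.6 in emerging needles and 6.65 in the apical meristem. In all, 11 of the 13 other libraries had reads for it, while young needles had none in either tissue.

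isotig27100, second at 536 (494 to 579.8), was the only one of the 211 with reads in all 13 other libraries. It stood at 55.9 in young needle, 46.9 in hypocotyl, 8.50 in root and 6.21 in developing root vascular tissue. Ground tissues ran from 1.56 in developing root cortex to 12.6 in cotyledon mesophyll, and the pith and apical meristem were at 46.2 and 35.9. In each of the 4 other organs the vascular library was above the ground tissue library, although the groups overlapped. In root this rested on 6 reads against 2, and in developing root on 6 against 1. Cotyledon vascular tissue exceeded young needle vascular tissue 9.57 times (7.50 to 12.4).

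unigene6869 had its next highest value in young needle vascular tissue too, at 29.1, against 337 (304 to 372) in cotyledon vascular tissue. It was at 20.1 in hypocotyl vascular tissue and had no reads in the root and developing root vascular libraries. Hypocotyl cortex stood close behind at 26.3, from 7 reads, and cotyledon mesophyll and root cortex had none. It was thus found in shoot libraries of either kind, and in the root only at 7.81 in developing root cortex and 17.6 in the root meristem.

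unigene9868, at 488 (449 to 531) in cotyledon vascular tissue, had reads in root and shoot libraries alike. Its next value was 40.4 in the root meristem, followed by 32.6 in root cortex, 29.8 in emerging needles, 25.9 in developing root vascular tissue and 18.7 in developing root cortex. It had 1 read in young needle vascular tissue, 1 in cotyledon mesophyll and none in root vascular tissue. Cotyledon vascular tissue was 12.1 times above the root meristem (9.28 to 16.0).

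Of the 5 transcripts with their next value in cotyledon mesophyll, the 2 with the highest such value are given here. isotig33240 stood at 345 (312 to 381) in cotyledon vascular tissue and 26.9 in cotyledon mesophyll, with 17.6 in developing root vascular tissue, 17.2 in developing root cortex and 16.9 in the root meristem. isotig42435 stood at 287 (256 to 319) in cotyledon vascular tissue and 24.4 in cotyledon mesophyll, and no other library exceeded 8.65. The vascular library was 12.8 times (8.94 to 19.0) and 11.7 times (8.02 to 17.8) above the mesophyll.

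**Figure D4:**
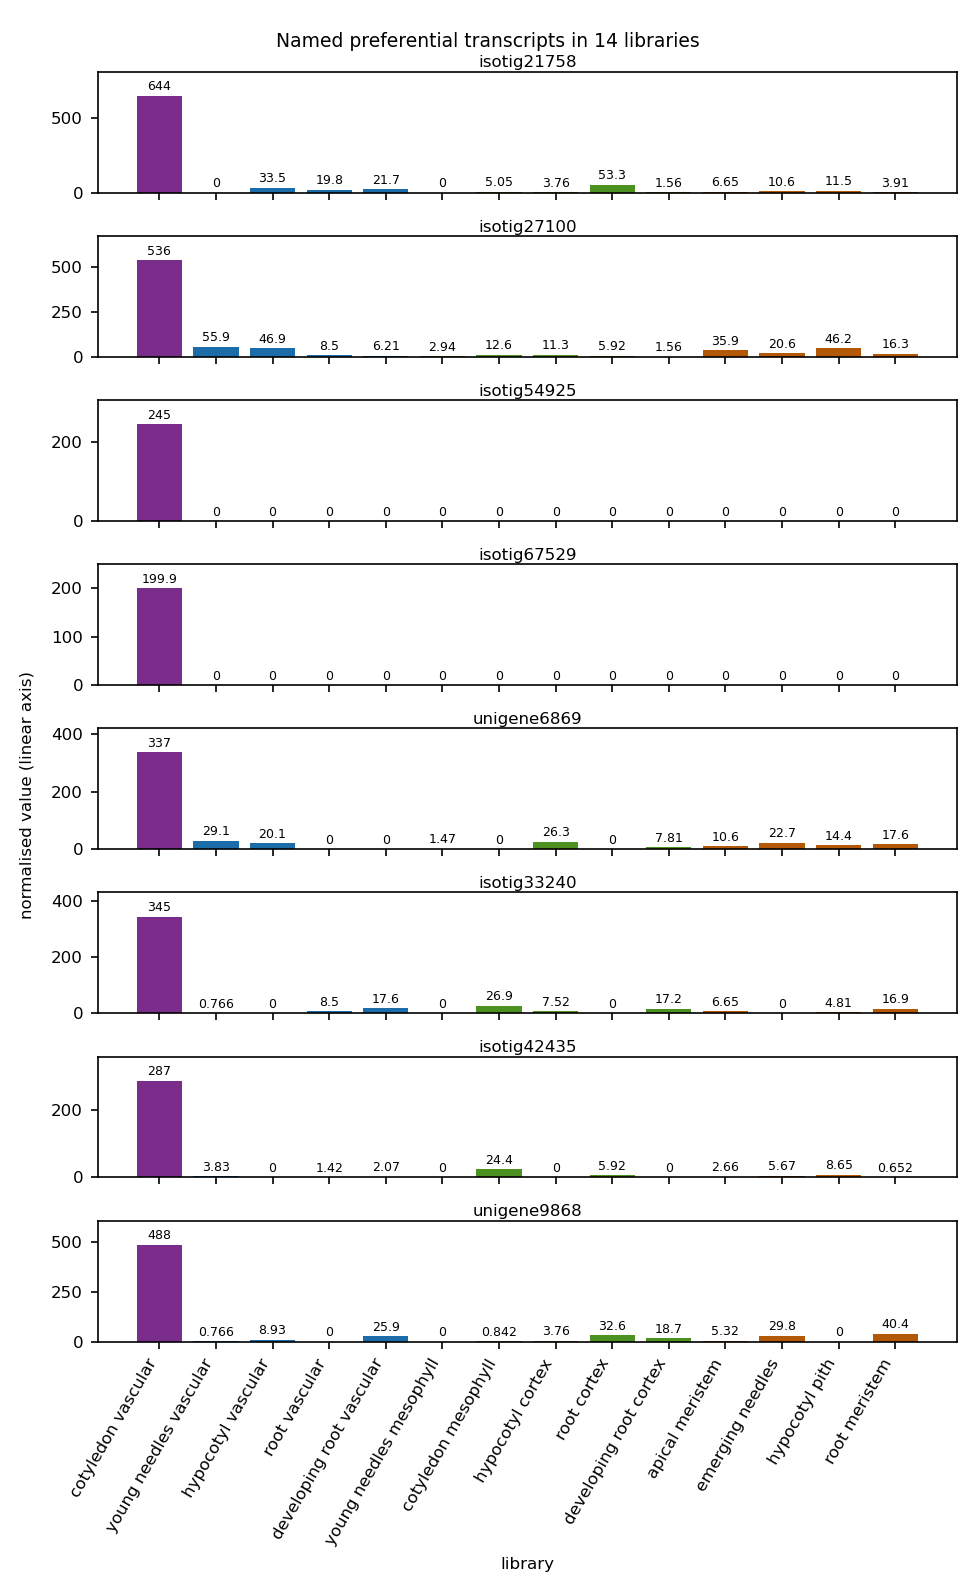
Normalised values (vertical, linear axis that differs between panels) of 8 named preferential transcripts in the 14 libraries, with cotyledon vascular tissue in purple, other vascular libraries in blue, ground tissue in green and the rest in orange. isotig54925 and isotig67529 are at 0 in all other libraries, isotig27100 reaches 55.9 in young needle vascular tissue, and unigene9868 reaches 40.4 in the root meristem.

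At the edge of the rule, isotig26898 lay just inside at a ratio of 8.003, with 82.4 (94 reads) in cotyledon vascular tissue and 5.92 in root cortex. That next value was 2 reads, so the ratio of the values themselves, 13.9, had an interval of 3.75 to 117. isotig45041 lay just outside at 7.977, with 64.9 in cotyledon vascular tissue and a single read, worth 3.76, in hypocotyl cortex. A total of 54 transcripts had a ratio from 7 to below 8, and 35 one from 8 to below 9. Of the 211, 153 lay below 16, 50 from 16 to below 32, and 8 at 32 or more, with a highest ratio of 50.1. Around the threshold, membership can thus turn on 1 or 2 reads in another library.

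Abundant members were also missing from whole libraries. Of the 43 transcripts with at least 200 reads in cotyledon vascular tissue, 37 had no read in young needle mesophyll, 33 none in young needle vascular tissue, 31 none in cotyledon mesophyll and 29 none in root vascular tissue. In the library where fewest were missing, the apical meristem, 21 had no read. In the same order of libraries, 36.8%, 50.7%, 47.6%, 54.7% and 77.4% of the whole table had reads. Among all transcripts at 35 or more in cotyledon vascular tissue it was 58.1%, 76.2%, 73.7%, 74.2% and 85.9%. The rule caps the members in all of these libraries, so the missing reads are partly its doing.

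The same rule gave sets of very different size in other tissues. It gave 751 transcripts in hypocotyl cortex, 609 in root vascular tissue, 458 in young needle mesophyll, 30 in hypocotyl and 11 in developing root vascular tissue, and 0 in both young needle vascular tissue and cotyledon mesophyll. Transcripts without reads elsewhere made up 27.5% of the cotyledon vascular set, and from 5.59% in hypocotyl cortex to 26.3% in pith of the 7 other sets of 50 or more. The highest level was 644 in the cotyledon vascular set, and from 1430 in pith to 103491 in hypocotyl cortex in the other 7. The cotyledon vascular set held 3.64% of its library's reads, within the range of the others, from 1.33% in pith to 18.7% in hypocotyl cortex. The next library was vascular for 28.8% of cotyledon vascular transcripts with reads elsewhere, against 30.9% in the root vascular set, each with 4 other vascular libraries. In the young needle mesophyll set, which has 5 vascular libraries beside it, the share was 27.0%. The next library was of the same organ for 3.27% of the cotyledon vascular set and 4.92% of the young needle mesophyll set. This share was 6.99% in root cortex, 13.9% in root vascular tissue and 15.3% in developing root cortex. It was 3.81% in hypocotyl cortex and 37.1% in pith, but the hypocotyl alone of these organs has 3 libraries, so these shares are not on a par with the others. Of the root vascular set, 132 of 609 (21.7%) had cotyledon vascular reads, and 33 of the 211 cotyledon vascular transcripts (15.6%) had root vascular reads. With the others at 0, the rule asked for 40 reads in cotyledon vascular tissue, 25 in root vascular tissue and 24 in young needle mesophyll. It asked for only 10 in hypocotyl cortex, the largest set, but for 42 in cotyledon mesophyll and 46 in young needle vascular tissue, the empty ones. The sizes of the sets are thus not on an equal footing, and no difference between the sets was tested.

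One property that the rule did not use was the kind of identifier. Among the 211, 188 (89.1%) had identifiers starting with isotig and 23 (10.9%) with unigene, against 68.5% and 30.6% of the whole table. Among the other 3776 transcripts at 35 or more in cotyledon vascular tissue 59.8% were isotigs, and among the 1657 highest in that tissue but not preferential 66.3%. Sets chosen the same way ranged from 56.8% in the apical meristem and 65.8% in root vascular tissue to 91.6% in pith, 93.2% in root cortex and 97.6% in hypocotyl cortex. The sources used here do not say how the kinds of identifier differ, and the shares were not tested.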

How the data were processed

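The deposited table holds 1 normalised signal per transcript and library for 23493 transcripts in 14 libraries. Per the submitters' processing notes FastQC, BWA and edgeR were used. Their versions, the assembly and any filter on low transcripts are not given in the sources used here. Values in this deposited signal are scaled CPM: in every column 100% of values were whole multiples (within 0.001) of the lowest value above 0, taken as 1 read, so reads were recovered by division. The column sums differ from plain CPM by a factor per library.

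The 211 members and the lists were chosen with earlier results of these data known. Named transcripts are, up to 2 in each list, the highest in cotyledon vascular tissue among all members, without reads elsewhere, and by kind of next library, with those nearest the threshold. Gene and marker lists were void without gene names, and 0 were tested. The log2(value + 5) was fitted with limma (version 3.58.1, R 4.3.3) and a trended prior. Transcripts entered when 3 or more of the 8 libraries reached 10, with organ (vascular against ground tissue) or tissue group (root against shoot) as a term and Benjamini-Hochberg adjustment over all transcripts fitted. Such differences understate the change of low transcripts. The scripts were tested on simulated data. edgeR 4.0.16 and DESeq2 1.42.0 on recovered reads were alternatives, beside other added values, filters, scalings and omitted libraries. Where a library had no reads, 3 reads were its limit.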

Additional observations from a re-analysis of the deposited data

Results flagged for a closer look

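The summed members and 9 named transcripts were screened among the 4 other vascular and the 5 ground tissue libraries for a library far from the rest, in 16 sets that were not all at 0. Chance marks about 1 in 20 sets of independent normal values, and 4 values were marked, some in sets that are otherwise at 0. isotig21758 stood at 53.3 in root cortex, against 0 to 5.05 in the other 4 ground tissues. isotig42435 stood at 24.4 in cotyledon mesophyll, against 0 to 5.92. isotig26898 stood at 2.07 in developing root vascular tissue and at 5.92 in root cortex, each from 2 reads, with the other libraries of the group at 0.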

How the results depend on the processing

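The number of preferential transcripts, 211, follows from the rule's settings. It was 368 with 1 added in place of 5 and 11 with 25 added, and 535 at a ratio of 4 and 58 at a ratio of 16. With plain CPM by library totals it was 316 (209 of the 211 among them), and with DESeq2's size factors 262 (209 of them). Leaving out 1 of the other libraries gave 213 (without developing root cortex) to 238 (without hypocotyl vascular tissue). Without the 4 other vascular libraries it was 337, without the 5 ground tissue libraries 294, and without the meristems, pith and emerging needles, an alternative added after the data were seen, 279. Also added then, the next library of the same members was vascular for 49 of 153 with plain CPM, for 44 by numbers of reads, and for 12 of the 35 whose next value reached 10. No member passed in any of the 20 alternatives of the vascular test (lowest limma or edgeR adjusted p 0.363), where 0 to 144 of all transcripts did, or in the 16 of the root test (lowest adjusted p 0.109, with DESeq2), where 0 to 826 did. From 2 to 211 members were in these fits. The organ term pairs the 2 libraries of an organ in the vascular test, and without it the lowest adjusted p of a member was 0.825 (limma). The depth of single libraries limits what a value of 0 shows to about 3 reads, a value of 2.52 in cotyledon mesophyll.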
